A study of Rattus norvegicus with 6 samples.

Results

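Microtubules are the tracks of axonal transport, and the genes described here encode those tracks and the motors that run on them. They were chosen by symbol: every gene whose symbol started with Kif or Klc and a digit, or with Tuba, Tubb, Dync or Dctn. The rule found 71 of the 18696 genes with group averages, of which 10 were also among the 1637 genes with a value for each library. The 71 genes were 15 tubulins, 39 Kif genes, 4 kinesin light chains, 7 chains of cytoplasmic dynein and 6 dynactin subunits. One of the Kif genes, Kif1bp (now named Kifbp), encodes a protein that binds kinesins and is no motor itself.

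The tissue was the dorsal root ganglion of SD rats, which holds the cell bodies of sensory neurons. In the 3 SNI (spared nerve injury) libraries the tibial and common peroneal nerves had been ligated and cut and the sural nerve left whole, so that a ganglion can hold injured and uninjured neurons side by side. In the 3 sham libraries the nerve had been exposed and the skin closed. No genotype, drug or allele is given for either group, and neither are the rats' age, the time after surgery, or which ganglia were taken. Whether replicates are different rats or pools is not stated, so p-values reflect only how far these libraries vary, which may be technical.

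A microtubule is a hollow polymer of paired alpha- and beta-tubulin, each encoded by several genes (isotypes) that differ between cell types. Many kinesins carry cargo from the cell body towards the axon tip, and cytoplasmic dynein with its cofactor dynactin carries cargo back, injury signals included. A second set of kinesins works in the mitotic spindle of dividing cells, which mature neurons do not form. Sensory neurons have some of the longest axons of the body and depend on this transport, and regrowing axons lay down new microtubules.

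Levels are in TPM, which correct for transcript length and express a gene as a share of its library. Average reads per library, as deposited, totalled 18.6 M for SNI and 18.6 M for sham, and the depth of single libraries is unknown. All 7 genes fixed as a check of nerve injury had higher averages in SNI, among them the axon injury transcription factor Atf3 at 288 TPM in SNI and 8.13 TPM in sham. Markers of sensory neurons were abundant in both groups, but 11 of 14 had a lower average in SNI. The averages of the 14 summed to 23615 TPM in SNI and 30472 TPM in sham. Most of that difference lay in the neurofilament genes Nefl, Nefm and Nefh. They averaged 4497, 3058 and 2877 TPM in SNI, against 7588, 4804 and 4485 TPM in sham. Prph, Calca and Pou4f1 had higher averages in SNI. Macrophage markers were higher in 8 of 8 averages, with sums of 243 TPM in SNI and 106 TPM in sham. The 1 macrophage marker tested with limma, Cd163, did not pass, with averages of 6.20 TPM in SNI and 6.03 TPM in sham. Erythrocyte markers were higher in 6 of 6 averages, with sums of 1962 TPM in SNI and 606 TPM in sham. Schwann cell markers were lower in 6 of 7, with sums of 5947 TPM in SNI and 10935 TPM in sham. The averages of these markers were above 0 in both groups, and their part in the differences below was not tested. In whole tissue, fewer cells of a type and less RNA per cell cannot be told apart, here and below.

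Of the 10 genes with values per library, 5 rose and 2 fell in SNI at a limma adjusted p under 0.05, and 3 did not pass. The beta-tubulin Tubb6, the spindle kinesin Kif22, the alpha-tubulin Tuba1c and the kinesins Kif3a and Kif1c rose. The kinesin light chain Klc1 and the kinesin Kif21b fell. These 7 were also the genes whose 3 SNI libraries lay wholly above (5) or below (2) the 3 sham libraries. The table with values per library is a selection by the authors whose criterion is not given: 32.0% of its 1596 tested genes rose, 29.2% fell and 61.2% were called in all, and the groups did not overlap for 35.3% (SNI higher) and 31.3% (SNI lower). The called share, 7 of 10, was therefore near that of the whole table. Quantile normalization moved the calls of the whole table to 402 higher and 608 lower, against 510 higher and 466 lower. The limma calls of Tubb6, Kif22, Tuba1c, Kif3a, Klc1 and Kif21b were kept under all 14 alternative settings, and that of Kif1c under 8 of 14.

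**Figure D1:**
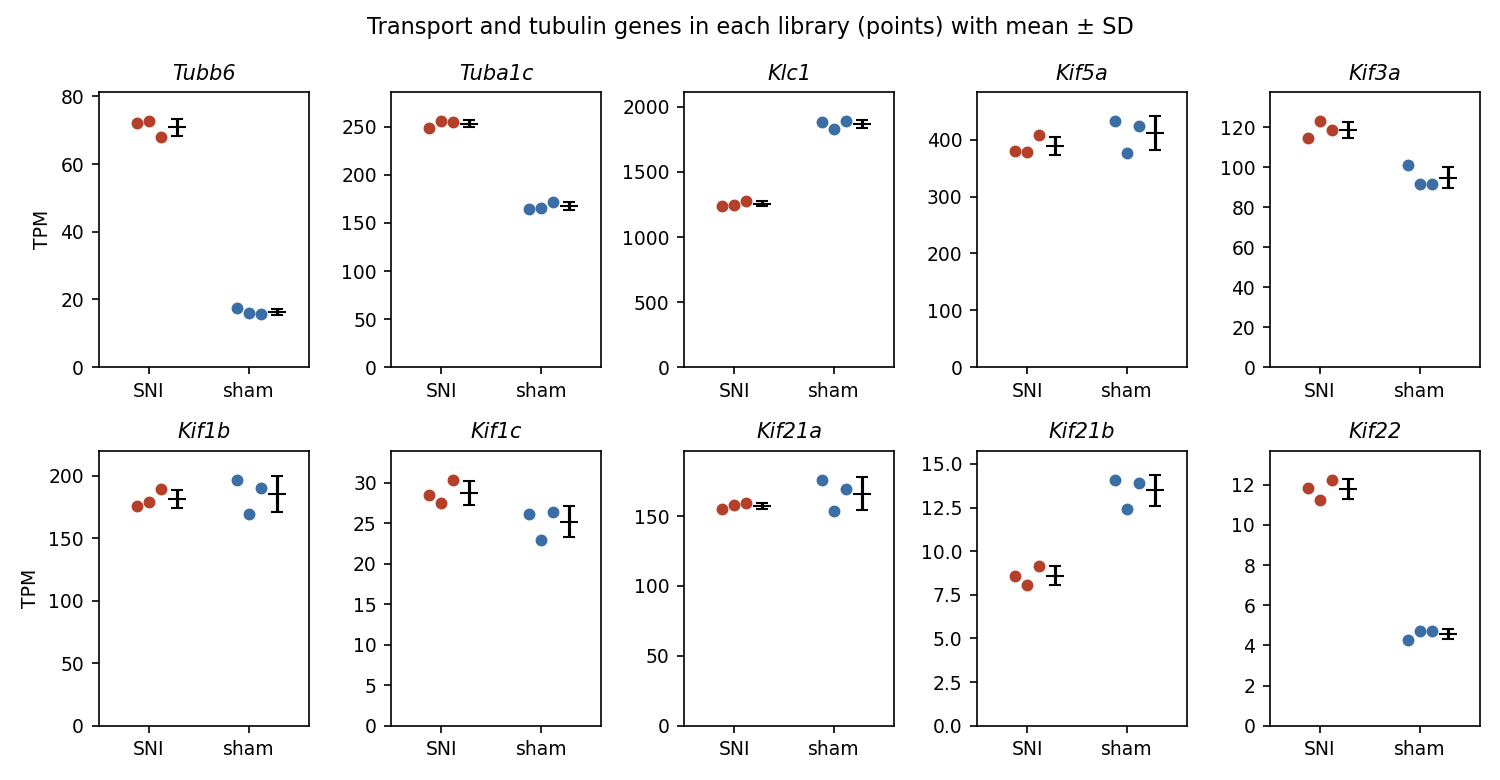
TPM (vertical axes, each from 0) of the 10 genes with values per library, with 1 point per library, 3 for SNI at left and 3 for sham at right, and black marks for the mean ± SD. The points of Kif5a, Kif1b and Kif21a overlap between groups, and those of the other 7 genes do not.

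**Figure D2:**
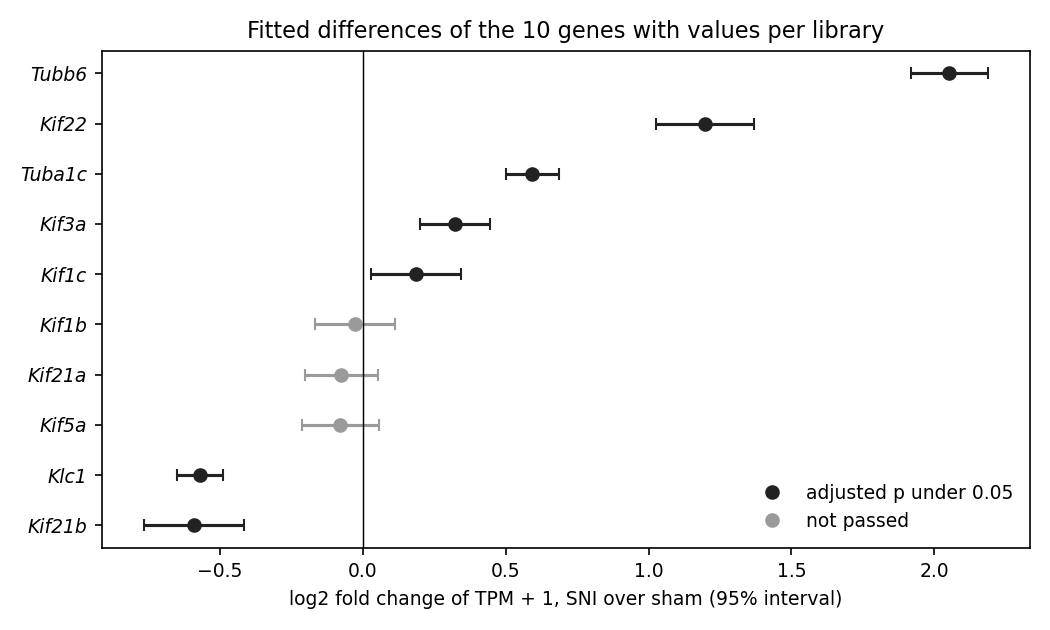
Fitted log2 fold change (horizontal axis, log2 of TPM + 1, SNI over sham) of the same 10 genes, with bars for the 95% interval from limma; black marks passed an adjusted p of 0.05 and grey marks did not. Tubb6 at 2.05 and Kif22 at 1.20 lie farthest to the right, and Klc1 at −0.57 and Kif21b at −0.59 farthest to the left.

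The start regions of 5 genes are shown. They belong to Tubb6, Tuba1c, Kif22 and Klc1, called in the per-library table, and to Tubb2b, the abundant tubulin past a fold of 1.5 in the averages. Kif21b has no entry. Each is the 150 bases before the annotated start of the gene, 5′ to 3′ on the gene's own strand, from RefSeq on the GRCr8 build. Capitals mark matches, on either strand, to 6 short motifs. They are TGANTCA for the AP-1 site, TGACGT for the core of the CRE, TATAAA for the TATA box, CCAAT for the CCAAT box, TTTGAA for the cell cycle genes homology region and GGGCGG for the GC box. In Klc1 a pair of CRE cores overlap on opposite strands. Tubb6 lies at chr18:63213137-63213286 (+ strand), Tubb2b at chr17:30952936-30953085 (+ strand), Tuba1c at chr7:132070834-132070983 (+ strand), Kif22 at chr1:191080879-191081028 (- strand) and Klc1 at chr6:136644450-136644599 (+ strand).
Tubb6: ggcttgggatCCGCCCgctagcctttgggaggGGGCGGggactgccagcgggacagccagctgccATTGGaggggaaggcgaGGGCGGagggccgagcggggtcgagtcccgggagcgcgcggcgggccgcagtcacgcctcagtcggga
Tubb2b: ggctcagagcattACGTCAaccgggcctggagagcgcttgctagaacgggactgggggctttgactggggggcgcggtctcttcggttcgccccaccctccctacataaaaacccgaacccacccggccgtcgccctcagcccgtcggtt
Tuba1c: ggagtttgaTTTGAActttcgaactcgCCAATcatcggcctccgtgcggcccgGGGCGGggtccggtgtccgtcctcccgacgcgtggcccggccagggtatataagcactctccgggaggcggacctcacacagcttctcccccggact
Kif22: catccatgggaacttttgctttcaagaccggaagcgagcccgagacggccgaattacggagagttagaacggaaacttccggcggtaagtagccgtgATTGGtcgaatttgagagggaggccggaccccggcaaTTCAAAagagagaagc
Klc1: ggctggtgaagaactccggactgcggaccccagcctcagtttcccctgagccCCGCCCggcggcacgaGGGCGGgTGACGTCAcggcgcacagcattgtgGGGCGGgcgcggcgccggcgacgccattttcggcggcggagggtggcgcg
The spindle kinesin Kif22 held a homology region 16 to 11 bases before its start and a CCAAT box 53 to 49 bases before it. Tuba1c, which is not a spindle kinesin, also held a homology region and a CCAAT box, both farther from its start, and a GC box. The pair was therefore not particular to Kif22 among the 5 genes. Tubb6 held 3 GC boxes and 1 CCAAT box, Tubb2b held 1 CRE core, and none of the 5 held an AP-1 site or a TATA box in these letters. Of 27457 promoters of the same length, one per gene, 3.61% held the AP-1 letters, 5.53% the CRE core, 8.16% the TATA box, 23.7% the CCAAT box, 9.12% the homology region and 27.8% the GC box. Among the 61 of the 71 genes with an entry, 3 held the AP-1 letters, 10 the CRE core, 2 the TATA box, 25 the CCAAT box, 8 the homology region and 37 the GC box. These matches describe letters in this window only.

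Tubb6 rose, and the averages of the beta-tubulins differed in total and in make-up. Tubb6 (NCBI Gene ID 307351), a divergent beta-tubulin isotype, stood at 72.09, 72.59 and 67.98 TPM in SNI and at 17.42, 16.00 and 15.59 TPM in sham. Each SNI library was far above every sham library. The means were 70.9 ± 2.53 TPM in SNI and 16.3 ± 0.960 TPM in sham (SD, n = 3 each), a ratio of 4.34. On the log2 scale the change was 2.05 with an SE of 0.06 (limma adjusted p = 7.8e-09). Its log2 ratio of averages was above that of 99.6% of all genes with averages. Tubb2b (Gene ID 291081), an isotype of developing neurons, had no values per library, and its authors' averages were 1553 TPM in SNI and 763 TPM in sham, a ratio of 2.04 with no error. Both genes were on the authors' list of higher genes, which held 3.63% of the genes with averages.

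The ratios of the more abundant beta-tubulins were smaller. Tubb3, the neuronal isotype used as a marker of neurons, averaged 6108 TPM in SNI and 4726 TPM in sham, and Tubb2a 2425 TPM in SNI and 1786 TPM in sham. The averages of the isotypes Tubb4b and Tubb4a were instead lower in SNI: 1577 TPM in SNI and 1777 TPM in sham for Tubb4b, and 858 TPM in SNI and 985 TPM in sham for Tubb4a, known from mature brain. Tubb5, an isotype of many cell types, averaged 1828 TPM in SNI and 1701 TPM in sham, and Tubb1, the platelet isotype, lay under 1 TPM in both groups. The 8 beta-tubulins together summed to 14421 TPM in SNI and 11756 TPM in sham, a difference of 22.7%. Within that sum, Tubb2b made up 10.8% in SNI and 6.49% in sham, Tubb4b 10.9% in SNI and 15.1% in sham, and Tubb6 0.492% in SNI and 0.139% in sham. Tubb2b was thus above Tubb4a in SNI and below it in sham. These sums and shares come from 1 average per group and were not tested.

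Among alpha-tubulins, Tuba1c (Gene ID 300218), a widely expressed isotype, was the 1 gene with values per library. It stood at 249.14, 255.62 and 254.75 TPM in SNI and at 164.86, 165.66 and 172.01 TPM in sham, with no overlap. The log2 fold change was 0.59 (SE 0.04, limma adjusted p = 2.5e-06). Most alpha-tubulin came from Tuba1a, the main isotype of neurons that grow axons, at 8939 TPM in SNI and 6729 TPM in sham. That average was the highest of all 18696 genes in SNI and the 4th highest in sham. Tuba1b, the isotype of most cells, averaged 4294 TPM in SNI and 4197 TPM in sham, and Tuba4a 690 TPM in SNI and 716 TPM in sham. Tuba8 averaged 6.59 TPM in SNI and 6.89 TPM in sham, and Tuba3a and Tuba3b lay under 1 TPM in both groups. The 7 alpha-tubulins summed to 14183 TPM in SNI and 11816 TPM in sham, a difference of 20.03%, close to that of the beta-tubulins with which they pair. Tuba1a made up 63.0% of that sum in SNI and 56.9% in sham. All 15 tubulins together took up 2.86% of all TPM in SNI and 2.36% in sham.

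Tubulin genes are near-identical over long stretches, and their values may depend on how reads shared by isotypes were divided. For 14 of the 15 tubulins the average read count, times 3, was not a whole number (tolerance 0.003) in at least 1 group, against 37.4% of all genes and 0 of the 6 dynactin subunits.

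**Figure D3:**
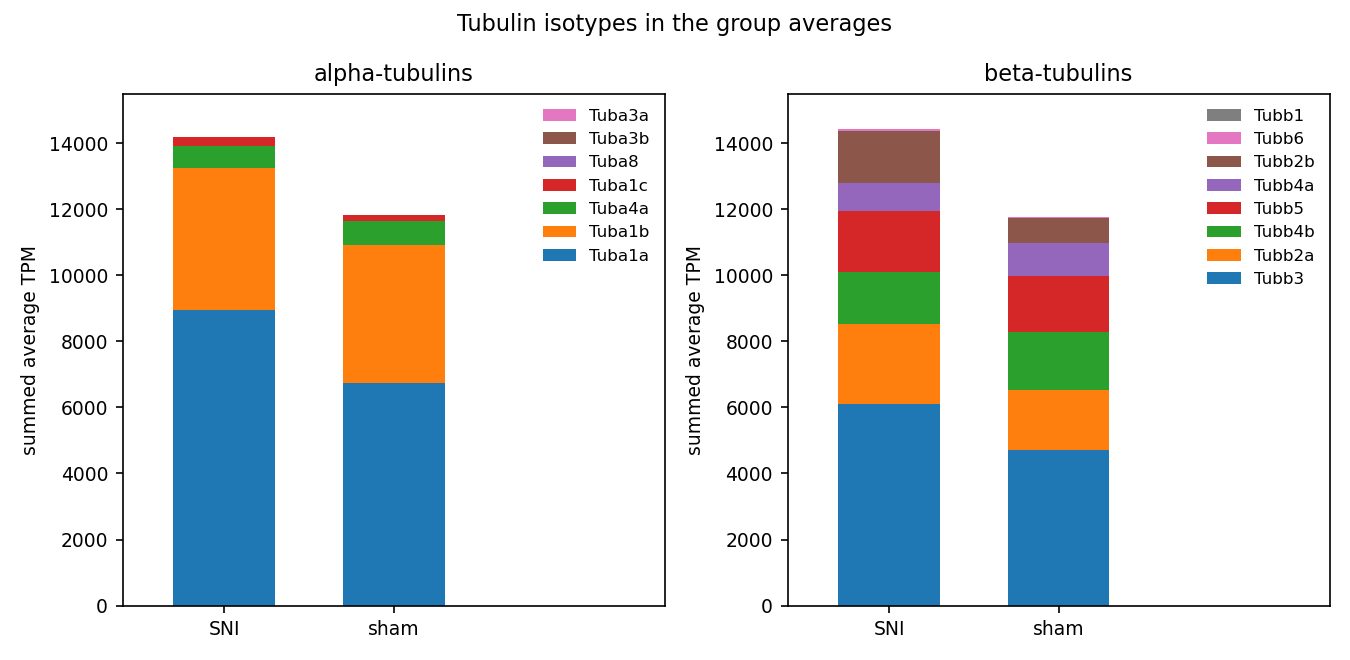
Summed average TPM (vertical axes, from 0) of the 7 alpha-tubulins (left) and the 8 beta-tubulins (right), with SNI as the left bar and sham as the right bar of each pair and 1 colour per isotype; there is no error, as there is 1 average per group. Both stacks are taller in SNI (14183 and 14421 TPM) than in sham (11816 and 11756 TPM), and the Tubb2b segment is about as thick as that of Tubb4b in SNI.

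Kinesin-1, the main motor of fast transport towards the axon tip, is built of 2 heavy chains that walk and 2 light chains that hold cargo. The light chain Klc1 (Gene ID 171041) was the most abundant motor gene of the 56 that are not tubulins, and it fell. It stood at 1241, 1248 and 1280 TPM in SNI and at 1884, 1830 and 1888 TPM in sham, and the groups were far apart. The means were 1256 ± 20.7 TPM in SNI and 1867 ± 32.5 TPM in sham (SD, n = 3 each), a difference of −32.7% and a log2 fold change of −0.57, with an SE of 0.04 (limma adjusted p = 1.0e-06). Klc2, the second light chain of neurons, averaged 404 TPM in SNI and 482 TPM in sham. Klc4 averaged 30.6 TPM in SNI and 28.03 TPM in sham, and Klc3, known best from testis, 1.69 TPM in SNI and 2.40 TPM in sham. Averages of 11 of the 14 sensory neuron markers were lower as well, most of all those of neurofilament genes, as given above. The part of these markers in the Klc1 difference was not tested.

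Of the heavy chains, only Kif5a had values per library, and it did not pass the test. Kif5a, the neuronal heavy chain, stood at 380.05, 378.91 and 408.01 TPM in SNI and at 432.25, 376.96 and 425.10 TPM in sham, so the groups overlapped. Its log2 fold change was −0.08 with a 95% interval of −0.21 to 0.06 (limma adjusted p = 0.28). Without sham replicate 2, the lowest of the sham libraries, it was −0.14 and passed (limma adjusted p = 0.028). Kif5c, the other neuron-enriched heavy chain, averaged 204 TPM in SNI and 156 TPM in sham, and the ubiquitous Kif5b 118 TPM in SNI and 132 TPM in sham. The 3 heavy chains summed to 712 TPM in SNI and 699.6 TPM in sham, while the 4 light chains summed to 1692 TPM in SNI and 2380 TPM in sham. Kif5c made up 28.7% of the heavy chains in SNI and 22.3% in sham. Within each library, which removes the scaling of TPM, Klc1 over Kif5a was 3.27, 3.29 and 3.14 in SNI and 4.36, 4.85 and 4.44 in sham, with no overlap. No test was run on this ratio or on the other ratios within libraries.

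The list of cargo kinesins held 18 genes, of which 9 had a higher and 9 a lower average in SNI, with a median log2 ratio of −0.01 against 0.02 over all genes. It included Kif7, which organises the tip of cilia, and the atypical Kif26a and Kif26b, which are not known as carriers of cargo. Without these 3, left out after the values were seen, 6 averages were higher and 9 lower in SNI, with a median of −0.04. Kif3a (Gene ID 84392), a motor chain of kinesin-2 that serves axons and cilia, stood at 114.81, 122.87 and 118.44 TPM in SNI and at 101.03, 91.58 and 91.74 TPM in sham. Every SNI library was above every sham library, and the log2 fold change was 0.32 (SE 0.05, limma adjusted p = 0.00076). Its partner chains Kif3b and Kif3c averaged 31.7 and 139 TPM in SNI, against 27.3 and 134 TPM in sham. The 3 chains together summed to 289 TPM in SNI and 256 TPM in sham. Kif3a over Kif5a was 0.302, 0.324 and 0.290 in SNI libraries and 0.234, 0.243 and 0.216 in sham libraries, again with no overlap.

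Of the kinesin-3 motors, carriers of synaptic vesicle precursors and dense-core vesicles, Kif1c passed the test and Kif1b did not. Kif1a, the most abundant of them, averaged 307 TPM in SNI and 326 TPM in sham. Kif1b stood at 175.56, 179.31 and 189.39 TPM in SNI and at 196.70, 169.13 and 189.99 TPM in sham, with a log2 fold change of −0.03 and a 95% interval of −0.17 to 0.11 (limma adjusted p = 0.72). Kif1c (Gene ID 113886), a relative expressed in many cell types, stood at 28.47, 27.52 and 30.37 TPM in SNI and at 26.20, 22.98 and 26.42 TPM in sham. The groups were apart by a narrow margin, and the log2 fold change was 0.19 (SE 0.07, limma adjusted p = 0.043). It lost the call in 6 alternatives, with a limma adjusted p of 0.17 after quantile normalization and 0.055 without the filter on low genes. The limma adjusted p was 0.084 without SNI replicate 1, 0.054 without SNI replicate 2, 0.16 without SNI replicate 3 and 0.097 without sham replicate 2. Of the related Kif13a, Kif13b and Kif16b, Kif13b had the ratio farthest from even, at 10.5 TPM in SNI and 14.5 TPM in sham, with no error.

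Of the Kif21 pair, Kif21b fell and Kif21a did not pass the test. Kif21b (Gene ID 289397), which restrains microtubule growth in neurons, stood at 8.55, 8.09 and 9.16 TPM in SNI and at 14.08, 12.43 and 13.93 TPM in sham, with no overlap. The log2 fold change was −0.59 (SE 0.08, limma adjusted p = 0.00013), and Kif21b was the 1 gene of the 71 past a fold of 1.5 downwards in the averages, where 2.19% of all genes were. Kif21a, its more abundant relative, stood at 154.81, 157.93 and 159.18 TPM in SNI and at 175.79, 153.28 and 169.19 TPM in sham, where the groups overlapped. Its log2 fold change was −0.08 with a 95% interval of −0.20 to 0.05 (limma adjusted p = 0.27). It passed after median scaling (−0.12, limma adjusted p = 0.038) and without sham replicate 2 (−0.13, limma adjusted p = 0.024). Sham replicate 2 was the lowest sham library for 6 of the 7 kinesins with values per library and for 46.4% of all genes tested, and without it 4 of the 10 genes were called lower. Kif21b over Kif21a was 0.0552, 0.0512 and 0.0575 in SNI libraries and 0.0801, 0.0811 and 0.0823 in sham libraries. The remaining genes of the list, Kif7, Kif17, Kif26a and Kif26b, all averaged under 5 TPM.

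Dynein and dynactin are the machinery of transport back to the cell body. Most of their genes with Dync1 or Dctn symbols had averages slightly lower in SNI. Other parts of both complexes were in a separate list of 20 motor parts and regulators, which also held kinesin genes and dynein regulators. Over that whole list 10 averages were higher and 10 lower, which is no count for dynein and dynactin alone. Of its dynein light chains, Dynll1 and Dynlt1 had higher averages in SNI. Dynll2, Dynlt2b, Dynlt3, Dynlrb1 and Dynlrb2 had lower ones. Of the 11 Dync1 and Dctn genes, 10 were lower and 1 higher, with a median log2 ratio of −0.09 and none past a fold of 1.5. Among all 1756 genes with at least 100 TPM in both groups, as all 11 had, 59.5% were lower and the median log2 ratio was −0.04. The heavy chain Dync1h1, which holds the motor, averaged 154 TPM in SNI and 166 TPM in sham. The intermediate chain Dync1i2 averaged 382 TPM in SNI and 409 TPM in sham. The neuron-enriched Dync1i1 was farthest from even at 170 TPM in SNI and 212 TPM in sham. Dync1i1 therefore made up 30.8% of the intermediate chains in SNI and 34.1% in sham. The light intermediate chains, which grip adaptors, had opposite signs: Dync1li1 averaged 157 TPM in SNI and 167 TPM in sham, and Dync1li2 131 TPM in SNI and 121 TPM in sham.

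All 6 dynactin subunits with a Dctn symbol had a lower average in SNI, by between −12.1% (Dctn3) and −1.12% (Dctn2). Among dynactin parts with other symbols, Actr1b, Capza1 and Capza2 had higher averages in SNI, and Actr1a, Actr10 and Capzb lower ones. Dctn1, the large p150Glued subunit that binds microtubules and dynein, averaged 408 TPM in SNI and 435 TPM in sham. Dctn2, or dynamitin, averaged 459 TPM in SNI and 464 TPM in sham, and Dctn6 of the pointed end 207 TPM in SNI and 228 TPM in sham. No gene with a Dync or Dctn symbol had values per library, so none of these differences has an error or a test. The ciliary dynein-2 chains were scarce: Dync2li1 averaged 12.2 TPM in SNI and 13.3 TPM in sham, and Dync2h1 3.07 TPM in SNI and 2.84 TPM in sham.

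**Figure D4:**
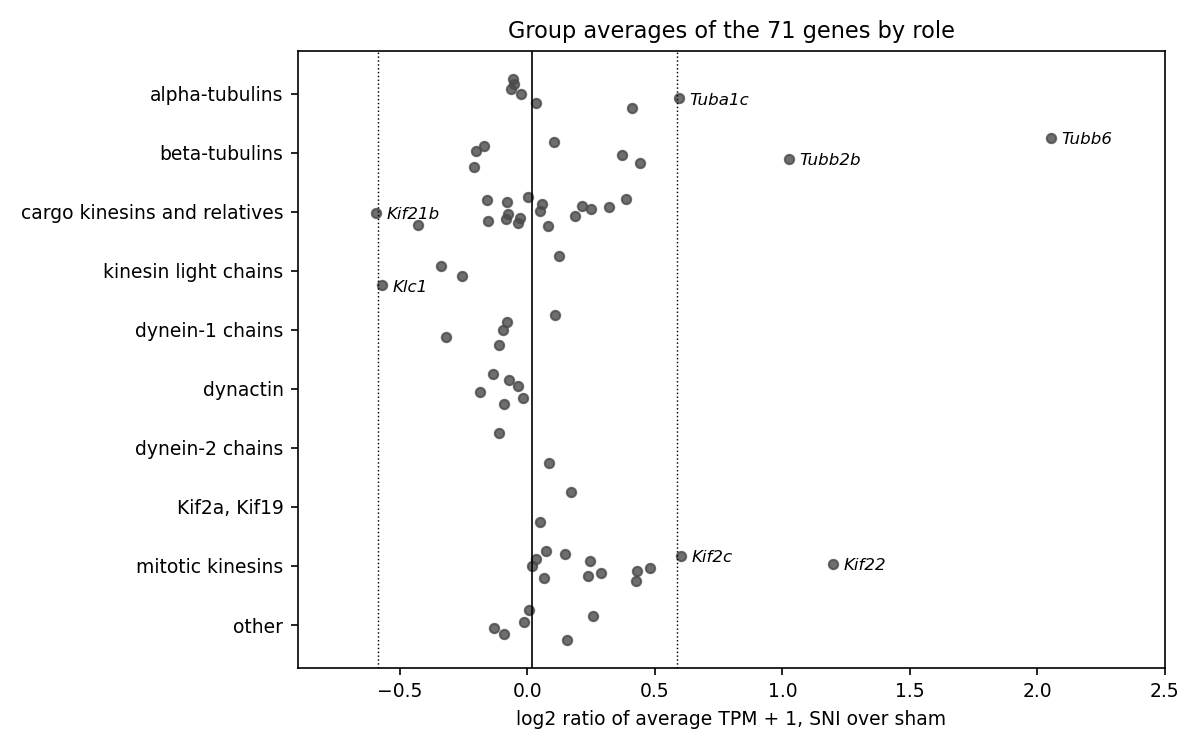
Log2 ratio of the authors' average TPM + 1, SNI over sham (horizontal axis), for each of the 71 genes (points) by role (rows); the solid line is the median of all genes (0.02) and the dotted lines mark a fold of 1.5. The 5 genes past the right line are Tubb6, Kif22, Tubb2b, Kif2c and Tuba1c, the 1 past the left line is Kif21b, and all 6 dynactin points lie left of the solid line.

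The kinesins listed here as mitotic, Kif24 among them, were low in both groups and had higher averages in SNI in 13 of 13 cases. Any higher average was seen for 53.1% of all genes and for 58.8% of the 7292 genes under 5 TPM in sham. Kif22 (Gene ID 293502), a chromosome-binding kinesin, was the 1 with values per library, at 11.86, 11.24 and 12.24 TPM in SNI and 4.27, 4.74 and 4.71 TPM in sham. Every SNI value was above every sham value. The log2 fold change was 1.20 (SE 0.08, limma adjusted p = 1.3e-06). Kif2c, which takes microtubules apart at centromeres, averaged 1.16 TPM in SNI and 0.420 TPM in sham, from an average of 28.3 reads in SNI and 10 reads in sham. Both were on the authors' higher list. Kif20a, a motor of cytokinesis, averaged 4.64 TPM in SNI and 3.04 TPM in sham, and Kif11, which pushes spindle poles apart, 1.73 TPM in SNI and 1.04 TPM in sham. The other 9 averaged under 1 TPM in both groups, and some of these averages rest on few reads or were near even. Kif4b averaged 4.67 reads in SNI and 2.33 reads in sham, and Kif20b 0.727 TPM in SNI and 0.703 TPM in sham. Kif24 was near even too, at 0.330 TPM in SNI and 0.300 TPM in sham.

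Markers of dividing cells had higher averages beside these kinesins, though the 1 tested, Aurkb, did not pass with limma. Of 14 such markers, 13 had a higher average in SNI and Birc5 a lower one, and none was at 0. Their averages summed to 91.7 TPM in SNI and 67.2 TPM in sham. Pcna alone made up 46.4 TPM of that sum in SNI and 39.9 TPM in sham. Mki67, a marker of cycling cells, averaged 2.29 TPM in SNI and 0.983 TPM in sham, and Top2a 2.21 TPM in SNI and 0.657 TPM in sham. The ratios of Ccnb1, Ccnb2, Pcna and Cdca8 were smaller, from 1.08 (Ccnb2) to 1.24 (Ccnb1). The 13 kinesins summed to 24.7 TPM in SNI and 12.7 TPM in sham. The averages of macrophage markers were higher as well, as given above. The part of either in the kinesin difference was not tested.

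**Figure D5:**
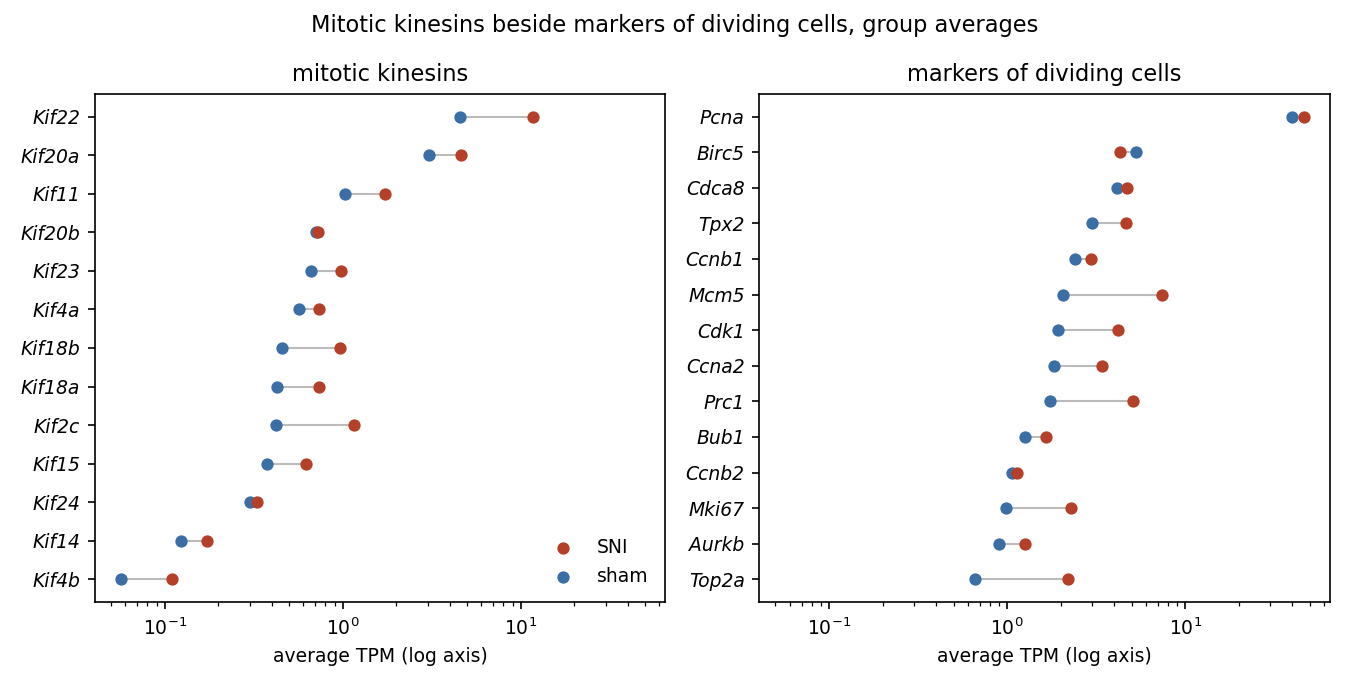
Average TPM (horizontal log axes) of the 13 mitotic kinesins (left) and 14 markers of dividing cells (right), with a red point for SNI and a blue point for sham joined by a grey line; there is 1 average per group and no error. The red point lies right of the blue one for all 13 kinesins and for all markers but Birc5.

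The remaining Kif genes were not past a fold of 1.5, though the added pseudocount shrinks the ratio of scarce genes. Kif2a, which trims microtubule ends in neurons, averaged 47.7 TPM in SNI and 42.2 TPM in sham, and Kif19, which shortens cilia, 32.3 TPM in SNI and 31.1 TPM in sham. Kif1bp averaged 83.5 TPM in SNI and 89.1 TPM in sham. Kif9 and Kif27, linked to motile cilia, averaged 2.54 and 1.79 TPM in SNI, against 2.52 and 2.06 TPM in sham. Kif6 averaged 0.373 TPM in SNI and 0.150 TPM in sham, from averages of 10.7 reads in SNI and 4.33 reads in sham. Kif12 and Kif28p averaged under 3 reads in both groups, and no ratio is given for them. Over all 71 genes, 38 averages were higher and 33 lower in SNI, against 53.1% higher and 45.9% lower over all genes, with a median log2 ratio of 0.02, as over all genes. Past a fold of 1.5 there were 5 higher genes, where 5.91% of all genes were, and 1 lower gene. The authors' lists held 4 of the 71 as higher (Tubb6, Tubb2b, Kif22 and Kif2c) and 0 as lower, where the lower list held 0.695% of all genes.

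Proteins that regulate microtubules and motors were read from lists of 129 other genes, all matched. Of these, 63 had a higher and 66 a lower average in SNI, where 53.1% and 45.9% of all genes were. Past a fold of 1.5 there were 3 upwards and 0 downwards, where 5.91% and 2.19% of all genes were. Of 21 tested with limma, 7 rose, 5 fell and 9 did not pass. Over all genes tested 32.0% rose and 29.2% fell. The limma shares, and the counts per list below, were therefore near the background or rest on few genes. Both stathmins tested rose. Stmn4, which binds free tubulin, stood at 153 TPM in each SNI library (153.04, 152.92 and 153.62) and at 36.24, 35.53 and 32.78 TPM in sham, a log2 difference of 2.11 (limma adjusted p = 3.3e-09). Stmn1 averaged 561 ± 12.4 TPM in SNI and 468 ± 7.48 TPM in sham (SD, n = 3 each). Of 10 microtubule-associated proteins tested, 3 rose and 3 fell. Dpysl3 of the growth cone, Map9 and the minus-end protein Camsap2 rose, with log2 fold changes of 0.49, 0.31 and 0.17. The axonal proteins Map1a and Map1b and the collapsin response protein Dpysl4 fell, with log2 fold changes of −0.30, −0.20 and −0.31.

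Among enzymes that modify tubulin tails, Agtpbp1, which shortens glutamate chains, averaged 219 ± 1.42 TPM in SNI and 175 ± 9.16 TPM in sham (SD, n = 3 each). Ttll7, which adds glutamate to beta-tubulin, averaged 246 ± 3.12 TPM in SNI and 340 ± 18.7 TPM in sham (SD, n = 3 each), a log2 fold change of −0.46 (limma adjusted p = 3.3e-05). Agtpbp1 rose and Ttll7 fell, and these were the 2 genes tested of the 33 in that list. Of 5 cargo adaptors tested, Ppfia1 rose (0.38), Mapk8ip2, a scaffold that binds kinesin light chains, fell (−0.20) and 3 did not pass. Of the other motor parts, 0 of 2 tested passed with limma, though both had an unadjusted p under 0.05: the dynein light chains Dynll1 (limma adjusted p = 0.074) and Dynlt1 (limma adjusted p = 0.055). The most abundant of that list after Dynll1 was the dynein light chain Dynlrb1, with averages of 811 TPM in SNI and 888 TPM in sham. Outside the per-library table, the averages of Map7d1, which recruits kinesin-1 to microtubules, were 213.5 TPM in SNI and 138 TPM in sham, and those of Vash2, which removes the tyrosine at the end of alpha-tubulin, were 2.98 TPM in SNI and 1.27 TPM in sham.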

How the data were processed

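Per the labels' protocols, total RNA from frozen ganglia of SD rats was made into Illumina libraries; the labels name 2 extraction methods and 2 library kits. The sources used here name no aligner, counter, build, annotation or strand setting, so overlapping antisense genes may share reads. The authors deposited, per the file headers, TPM per library for 1637 genes, and average TPM and average read counts (estimated counts, with no normalization stated) per group for 18696 genes. Columns named control were taken as sham. For all 1628 genes in both tables, group means of the libraries matched the deposited averages within 0.001 TPM. No per-sample column was left unmapped.

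Log2(TPM + 1) was compared for 1596 genes (mean TPM of 1 or more) with limma 3.58.1 (R 4.3.3; intensity trend, group as the only term, Benjamini-Hochberg adjustment over all tested genes). The fold changes understate low genes. Log2 ratios of averages, and the fold of 1.5 applied to them, used the same pseudocount and have no test; ratios and percent differences are of the plain values. Replicate numbers were not taken as pairs of libraries (see the closing part). Tables were handled with Python 3.11.15 and pandas 2.3.3. Gene IDs were matched to a RefSeq table of GRCr8 for names (71 of 71 found) and for start regions.

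The genes, lists, motifs and tests were chosen with earlier results of these data known. Named are all members with values per library, those past a fold of 1.5, the 3 most abundant per role, and of other genes up to 3 called per list and direction; further names were added after values were seen.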

Additional observations from a re-analysis of the deposited data

How the results depend on the processing

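Depth per library is unknown, 61 of the 71 genes have averages with no error, and the per-library table is a selection, so calls cannot be extended to the other genes. Replicate numbers are shared between the groups. Same-numbered libraries had correlations of deviations of −0.0881, −0.0589 and 0.188, and the numbers were not taken as pairs. With 3 libraries per group, these values cannot show whether same-numbered libraries shared a batch. With the replicate block, 498 genes were called higher and 447 lower (510 and 466 without it), and of the 10 genes 5 were higher and 2 lower, as without it. Leaving out 1 library gave 442 to 522 genes higher and 381 to 477 lower, and 4 to 5 of the 10 genes higher and 2 to 4 lower. Quantile normalization moved the split of all calls to 402 higher and 608 lower (39.8% higher against 52.3%). The log2 fold change of Kif1b, not called in any of the 14 alternatives, was between −0.092 (without sham replicate 2) and 0.016 (without sham replicate 1) when 1 library was left out. In the averages, the 5 higher and 1 lower genes past a fold of 1.5 became 12 and 4 at a smaller fold, 3 and 0 at a fold of 2, 12 and 2 with pseudocount 0.1, 3 and 0 with pseudocount 5, and 13 and 2 with average read counts. The shares of all genes past the fold moved too. At the smaller fold 13.6% of all genes were higher and 8.25% lower, and at a fold of 2 these shares were 2.32% and 0.407%. With pseudocount 0.1, 10.9% were higher and 5.18% lower. With pseudocount 5, 2.85% were higher and 0.845% lower. With average read counts, 11.9% were higher and 5.79% lower. The median log2 ratio of the 71 genes, 0.02, was 0.033 with pseudocount 0.1, 0.0059 with pseudocount 5, 0.045 with average read counts and −0.016 among the 55 genes with at least 1 TPM in the larger average. The causes were not tested.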
